A study of Mus musculus with 21 samples.

Results

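All 12 cultured samples of the series were compared with all 9 epiblasts, and the genes described here are chiefly those whose lowest level in culture exceeded their highest level in the embryo, or the reverse. The cultured side held 4 groups of 3 samples, each sample 1000 cells. FS1 (passages 10, 11 and 18) and FS2 (passages 12, 13 and 16) are 2 lines of mouse formative stem cells grown in a medium named A3XR. AF and AFX are epiblast stem cells (EpiSCs) whose titles name E14, a mouse embryonic stem cell line, grown in media of those names, each sampled at passages 14, 15 and 16. The embryonic side held individually collected mouse epiblasts, 3 per stage, from embryonic days E5.0 and E5.5 and a later stage called E6.0 in the titles and E6.5 in another label field. Strain, genotype and sex are not given in the labels. RNA sequencing of total RNA gave raw counts per gene, from which CPM, each gene's counts scaled to a common sample total, were taken. CPM is not divided by gene length, so levels are compared between samples and not between genes.

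The epiblast is the embryonic tissue from which the fetus proper forms. Around implantation it loses naive pluripotency, methylates its DNA, becomes a polarised epithelium and gains competence to respond to germ layer signals, a stage called formative. Formative stem cells and EpiSCs are self-renewing lines that represent earlier and later parts of this period in culture.

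Of the 33861 genes in the table, 16614 had enough counts to be tested. In 1471 of these (8.85%) every cultured sample lay above every epiblast, and in 407 (2.45%) every cultured sample lay below. Both sets were picked by their values, so they are described and not tested as sets, and 1366 and 363 of their genes are protein-coding. A quasi-likelihood test of the 4 cultured group means against the 3 stage means, each group with equal weight, called 5683 genes higher in culture (34.2% of those tested) and 4811 lower (29.0%) at an adjusted p under 0.05. When the groups were treated as a random block, so that samples of 1 group count as correlated, the calls were 3404 and 3003.

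The split of the non-overlapping genes depended on how samples were scaled. With CPM on effective library sizes (TMM, which centres most genes), 896 genes were higher and 964 lower, so 48.2% were higher against 78.3% by plain CPM. All 896 were among the 1471, and all 407 were among the 964, which the scaling itself forces. The TMM factors that divide the levels were 1.038 to 1.105 in culture and 0.867 to 0.971 in epiblasts. Every cultured level therefore fell and every epiblast level rose. The median log2 difference over all genes tested was 0.30 by plain CPM and 0.09 by TMM. Fold changes below are from the TMM-scaled fit, where the median gene had 0.08, and a gene whose separation was lost under TMM is named as such. At the edge of the rule, Lmf1 was just inside, with a lowest cultured level of 12.872 CPM and a highest epiblast level of 12.871 and overlap under TMM, and Rhbdd2 just outside, with 13.138 against 13.144.

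**Figure D1:**
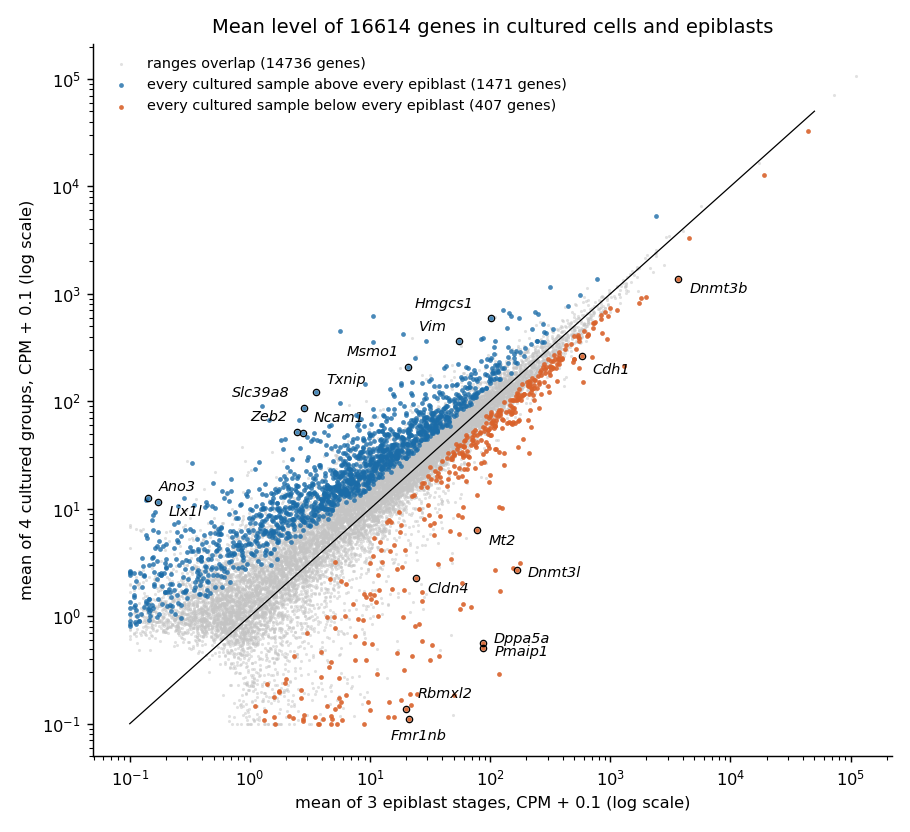
Mean CPM (plus 0.1, log axes) of each tested gene in the 4 cultured groups against the 3 epiblast stages, each group weighted equally; the line marks equality. The 1471 genes with every cultured sample above every epiblast (blue) and the 407 with the reverse (orange) lie on either side, with orange genes such as Fmr1nb and Pmaip1 near the floor in culture.

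Total counts ran from 5827093 to 15916800 per sample, so the 3 counts used as a floor equal 0.189 to 0.515 CPM. Cultured samples had more genes with at least 5 counts than epiblasts, 16568 ± 731 (SD, n = 12) against 15112 ± 447 (SD, n = 9; exact permutation test, two-sided, adjusted p = 0.000218). Pluripotency genes marked both sides, with a summed level of 1971 to 3046 CPM in culture and 3031 to 3600.4 in epiblasts, lower in culture (exact permutation test, two-sided, adjusted p = 0.000122). The sides differ at once in culture against embryo, in cell line against individual, and in 1000 collected cells against a whole epiblast, and these cannot be told apart. The replicates of a cultured group are passages of 1 line, not separate derivations, so p-values measure the spread between passages and between embryos.

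Genes of cholesterol synthesis and uptake had the largest share of higher members among the gene lists. Of 24 tested, 23 were higher and 1 lower, and 18 had no overlap between the sides (14 by TMM), with a median log2 fold change of 1.58 against 0.08 over all genes. With the groups as a random block, 21 were higher. The list spans the mevalonate pathway, the later sterol ring reactions, and the SREBP2 system that switches these genes on when membrane sterol is low.

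Hmgcs1, which makes HMG-CoA for the pathway, measured 388 to 767 CPM (median 571) in culture and 64.2 to 136 (median 108) in epiblasts, log2 fold change 2.34 ± 0.10 (SE, adjusted p = 6.8e-14). The lowest cultured sample lay well above the highest embryo. Msmo1, a sterol methyl oxidase, had the largest difference in culture's favour of the list with 166 to 259.8 CPM (median 218) against 11.7 to 30.7 (median 18.3), log2 fold change 3.15 ± 0.12 (SE, adjusted p = 1.05e-14). Lss, which closes the sterol ring, measured 77.9 to 231 CPM (median 139) against 18.6 to 37.4 (median 25), log2 fold change 2.23 ± 0.12 (SE, adjusted p = 1.54e-12). For these 3 genes the epiblasts also fell in stage order by their group means, as in Msmo1 with 27.3 CPM at E5.0, 18.7 at E5.5 and 15.6 at E6.0, while the 4 cultured means ran only from 194 to 236.

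The regulator Srebf2, which encodes SREBP2, was also higher and measured 262 to 393 CPM (median 306) against 87.8 to 185 (median 142), log2 fold change 1.01 ± 0.07 (SE, adjusted p = 2.26e-11). Insig1, which holds SREBP in the endoplasmic reticulum, was the 1 lower member, and its cultured samples were not alike. It averaged 0.161 CPM in FS1 and 0.0387 in FS2 but 45.2 in AF and 101 in AFX, against 25 to 109.8 (median 39.4) in epiblasts. Its log2 fold change was -4.54 ± 0.20 (SE), it was -2.57 without FS2, and the call was lost when the samples were fitted as only 2 groups (-0.76, adjusted p = 0.519).

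The promoters of 3 of these genes are printed because CCAAT boxes recur in them, as described below. Each covers 250 bases before to 50 after the RefSeq start (build GRCm38.p6), read 5′ to 3′ on the gene's strand, with CCAAT or its reverse complement ATTGG in capitals. They lie at chr13:119690101-119690400 (plus strand), chr5:114444019-114444318 (plus strand) and chrX:72918271-72918570 (plus strand).
Hmgcs1: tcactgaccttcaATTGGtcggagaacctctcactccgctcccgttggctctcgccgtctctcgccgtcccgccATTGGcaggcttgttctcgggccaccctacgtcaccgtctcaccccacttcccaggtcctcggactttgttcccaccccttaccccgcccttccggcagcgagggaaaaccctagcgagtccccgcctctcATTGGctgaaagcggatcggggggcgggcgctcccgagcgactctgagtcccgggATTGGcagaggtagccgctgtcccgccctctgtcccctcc
Mvk: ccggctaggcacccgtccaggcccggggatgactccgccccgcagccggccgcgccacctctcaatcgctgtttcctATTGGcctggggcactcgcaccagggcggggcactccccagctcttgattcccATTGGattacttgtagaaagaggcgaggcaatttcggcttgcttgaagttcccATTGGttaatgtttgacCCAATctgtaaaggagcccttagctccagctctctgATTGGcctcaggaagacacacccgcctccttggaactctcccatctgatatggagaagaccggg
Nsdhl: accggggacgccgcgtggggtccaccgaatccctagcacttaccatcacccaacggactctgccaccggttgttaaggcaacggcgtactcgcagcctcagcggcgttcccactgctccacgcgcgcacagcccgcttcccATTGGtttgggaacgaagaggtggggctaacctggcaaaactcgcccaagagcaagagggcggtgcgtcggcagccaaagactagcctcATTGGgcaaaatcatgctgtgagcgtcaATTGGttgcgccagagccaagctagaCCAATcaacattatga
Hmgcs1 and Nsdhl hold 4 matches each, a number reached by 1.84% of the 10819 promoters of tested genes, and Mvk holds 5, reached by 0.508%. Of the 16 listed sterol genes with a promoter in the table, 15 (93.8%) held CCAAT on either strand, against 39.1% of all promoters. A sterol regulatory element spelled TCACNCCAC, searched on both strands, was in 1 of the 16 (6.25%) and in 1.16% of all. These motifs were chosen after the expression values were seen, and a match of letters is not a binding site. Mvk, mevalonate kinase, measured 21.7 to 43.9 CPM (median 30.1) against 8.79 to 15.1 (median 11), log2 fold change 1.19 ± 0.13 (SE, adjusted p = 5.54e-08). Nsdhl, a later sterol enzyme, measured 23.8 to 78.7 CPM (median 55.8) against 7.61 to 21.7 (median 14.6), log2 fold change 1.75 ± 0.15 (SE, adjusted p = 1.71e-09), and overlapped under TMM.

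Fatty acid synthesis followed, with 9 of 10 genes higher, 1 lower and 5 without overlap (2 by TMM). Scd2, a desaturase that makes monounsaturated fatty acids, measured 935 to 1518 CPM (median 1076) against 157 to 497 (median 286), log2 fold change 1.71 ± 0.09 (SE, adjusted p = 2.02e-12). Acss2, which makes acetyl-CoA from acetate, measured 5.06 to 29 CPM (median 11) against 0.369 to 3.15 (median 1.03), log2 fold change 2.70 ± 0.33 (SE, adjusted p = 3.82e-07). Both were separated under either scaling. The related desaturase Scd1 divided the cultures, with 6.01 ± 7.2 CPM (SD, n = 3) in FS1 and 9.43 ± 3.13 in FS2 below every epiblast, and 267 ± 46.3 in AF and 299.9 ± 12.8 in AFX above every epiblast. Its pooled log2 fold change of -0.85 ± 0.24 (SE) was called lower by the 7-group test and not with the random block (adjusted p = 0.465).

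Among p53 targets and BCL2-family genes, 14 of 21 were higher and 5 lower, with 11 above and 2 below without overlap (9 and 2 by TMM). Cdkn1a, the p21 inhibitor of cyclin-dependent kinases, measured 17.8 to 35.8 CPM (median 29.6) in culture and 2.4 to 11.8 (median 5.3) in epiblasts, log2 fold change 2.25 ± 0.21 (SE, adjusted p = 7.4e-09). Ccng1, a cyclin induced by p53, measured 137 to 351 CPM (median 208) against 34.2 to 87.4 (median 50.7), log2 fold change 1.80 ± 0.12 (SE, adjusted p = 1.44e-10). Perp, a p53-induced membrane protein, measured 9.5 to 30.3 CPM (median 15.2) against 0.21 to 2.92 (median 1.15), log2 fold change 3.53 ± 0.29 (SE, adjusted p = 6.27e-10). All 12 cultured samples exceeded all 9 embryos for these 3 genes. The death receptor gene Fas had at most 3 counts in every epiblast and 0.349 to 2.73 CPM (median 1.4) in culture, at least 4.24-fold higher against a floor of 3 counts per library. Mdm2, the p53 inhibitor, overlapped, with a log2 fold change of 0.56 ± 0.09 (SE).

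The BCL2 family moved in both directions. Bcl2, which blocks apoptosis at the mitochondrion, measured 5.93 to 14.8 CPM (median 8.73) against 0.362 to 3.26 (median 1.85), log2 fold change 2.52 ± 0.22 (SE, adjusted p = 1.71e-09). Mcl1, another survival protein of the family, measured 85.8 to 157 CPM (median 119) against 215 to 335 (median 256), log2 fold change -1.39 ± 0.08 (SE, adjusted p = 8.18e-13), with no overlap in the other direction. Pmaip1 encodes NOXA, a BH3-only protein that binds and neutralises MCL1. It measured 0 to 2.06 CPM (median 0.191) in culture and 38.6 to 139 (median 86.8) in epiblasts, log2 fold change -8.65 ± 0.23 (SE, adjusted p = 3.62e-17), and had the widest gap of the named genes lower in culture. In the embryo it averaged 52.4 CPM at E5.0, 76.9 at E5.5 and 134 at E6.0.

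**Figure D2:**
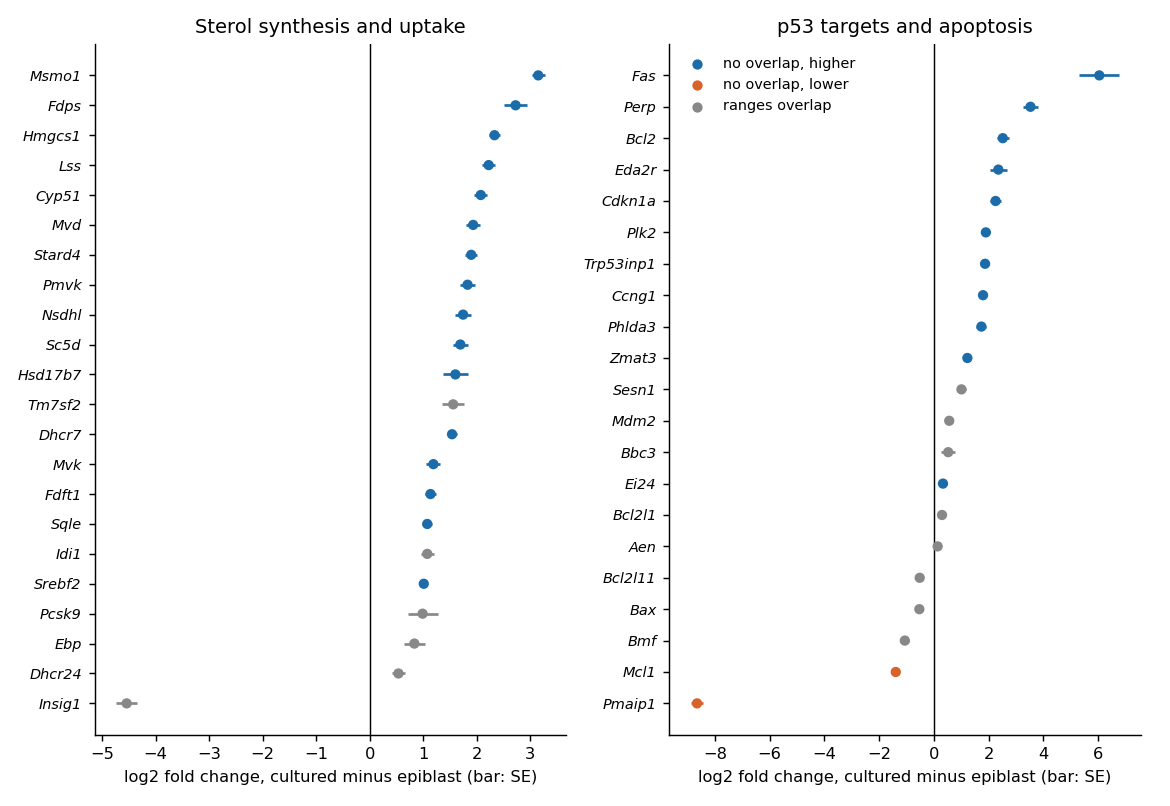
Log2 fold change (cultured minus epiblast, bars 1 SE) of 22 sterol genes and the 21 p53-target and apoptosis genes, coloured by whether the samples of both sides overlap. All plotted sterol genes but Insig1 lie above 0, while Pmaip1 and Mcl1 stand apart on the lower side of the second panel.

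Genes of the integrated stress response, which ATF4 drives when amino acids run short or the endoplasmic reticulum is stressed, were mostly higher, with 17 of 22 higher, 3 lower and 6 above without overlap (3 by TMM). The random block left 11 higher, and 10 were higher without E5.0. Ddit4, an inhibitor of mTORC1, measured 30.1 to 125 CPM (median 65.3) against 3.14 to 21.7 (median 6.12), log2 fold change 2.89 ± 0.35 (SE, adjusted p = 2.73e-06). Aldh1l2, a mitochondrial folate enzyme, measured 3.99 to 31.5 CPM (median 12.6) against 0 to 3.47 (median 0.923), log2 fold change 3.55 ± 0.48 (SE, adjusted p = 4.46e-06). Both were above every embryo under either scaling. Atf4 itself overlapped, and its log2 fold change of 0.55 ± 0.09 (SE) was 0.21 without E5.0, where the call was lost (adjusted p = 0.0691). Of the 24 glycolysis and hypoxia genes, 12 were higher, 4 lower (1 with the random block) and 4 above without overlap (3 by TMM). Those without overlap were Vegfa, the vascular growth factor, with 52.4 to 190.2 CPM (median 84.1) against 5.54 to 39.8 (median 16.9), Slc2a3, a glucose transporter, with 269.6 to 2337 CPM (median 594) against 61 to 222 (median 112), the collagen hydroxylase P4ha1 with a log2 fold change of 1.75 ± 0.14 (SE), and the glycolytic enzyme Tpi1 with 0.49 ± 0.09 (SE), which overlapped under TMM. Gapdh, Pfkl and Aldoa of the same list did not pass the test.

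**Figure D3:**
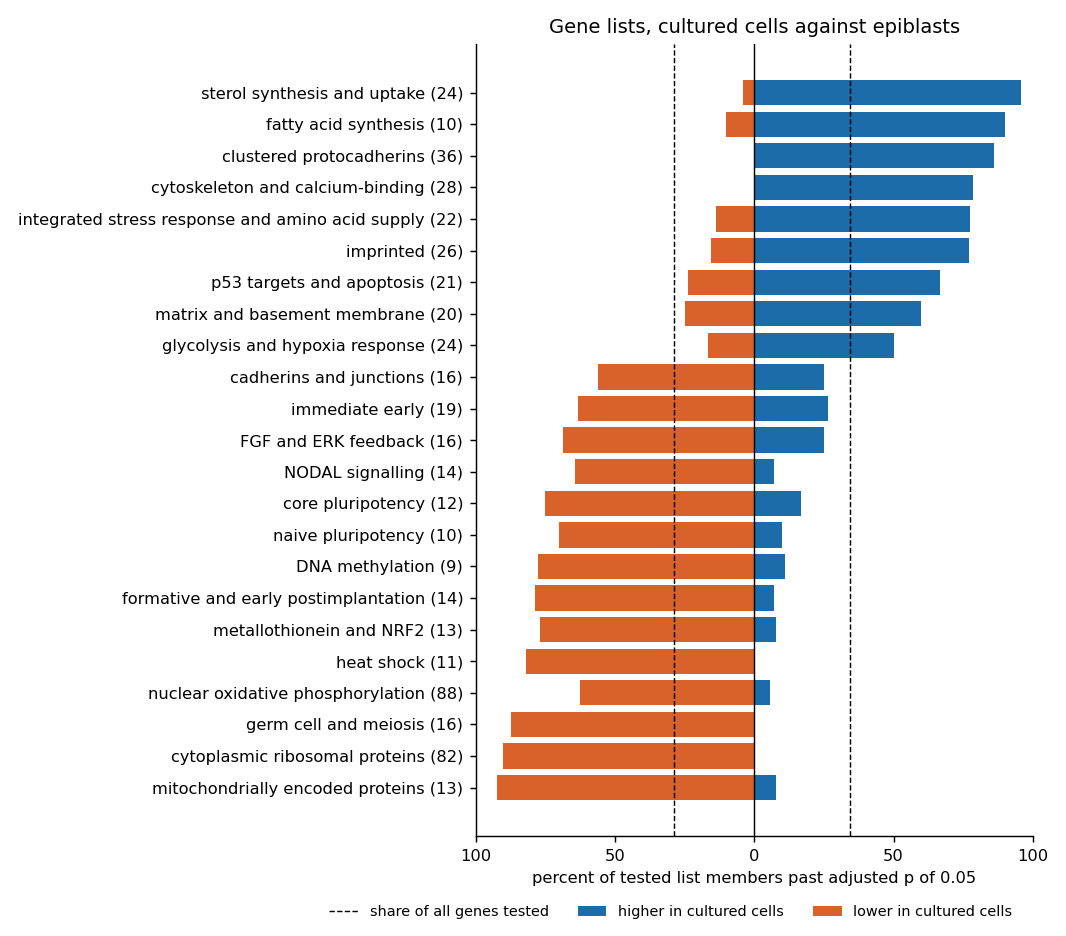
Percent of tested members (number in brackets) of each gene list called higher (right) or lower (left) in culture at an adjusted p under 0.05, with dashed lines at the shares over all genes tested, 34.2% and 29.0%. Sterol genes have the largest share of higher members plotted, 23 of 24, and the genes of mitochondrially encoded proteins the largest share of lower ones, 12 of 13.

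Junction genes were called in both directions. Of 16 cadherin, claudin and related genes, 4 were higher and 9 lower, with 3 above and 4 below without overlap under both scalings. With the random block 4 were higher and 7 lower. Zeb1 and Zeb2 encode repressors of E-cadherin and other epithelial genes. Zeb1 measured 26.6 to 58.7 CPM (median 46.1) in culture and 0.844 to 4.63 (median 1.4) in epiblasts, log2 fold change 4.41 ± 0.20 (SE, adjusted p = 5.85e-14). Zeb2 measured 24.6 to 77.5 CPM (median 51.7) against 0.21 to 7.14 (median 1.33), log2 fold change 4.86 ± 0.19 (SE, adjusted p = 5.79e-15), and its highest embryos were those of E6.0, without which the log2 fold change was 5.78. Every cultured sample exceeded every embryo several-fold for both. Cdh2, N-cadherin, measured 57.7 to 190.3 CPM (median 66.2) against 7.89 to 34.2 (median 13.5), log2 fold change 2.11 ± 0.19 (SE, adjusted p = 2.27e-08).

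Other members had lower levels in culture. Cdh1, E-cadherin, measured 166 to 429 CPM (median 246) in culture and 517 to 667 (median 566) in epiblasts, log2 fold change -1.38 ± 0.09 (SE, adjusted p = 6.89e-11), so it was lower and still present in every cultured sample. Esrp1, an epithelial splicing factor, measured 6.75 to 80.3 CPM (median 32.5) against 94 to 136 (median 107), log2 fold change -2.13 ± 0.13 (SE, adjusted p = 3.95e-11). Grhl2, a transcription factor of epithelial genes that is not in this list, measured 8.44 to 31.1 CPM (median 19.8) against 53.4 to 161 (median 84.2), log2 fold change -2.49 ± 0.09 (SE, adjusted p = 1.39e-15). No cultured sample reached the lowest embryo for any of the 3. The tight junction claudin genes Cldn6 and Cldn4 had log2 fold changes of -2.30 ± 0.15 (SE) and -4.21 ± 0.31 (SE) without overlap, and Ap1m2, an epithelial sorting adaptor outside the list, had -7.59 ± 0.28 (SE). Epcam, Ocln and Cldn7 were also lower, at -0.80 ± 0.08 (SE), -2.26 ± 0.22 (SE) and -2.90 ± 0.24 (SE), with overlap. The transcription factor genes Snai1 and Twist1, known like Zeb1 and Zeb2 from mesenchymal cells, were lower too, at -1.15 ± 0.34 (SE) and -1.18 ± 0.28 (SE), while Snai2 was higher at 2.57 ± 0.57 (SE), and all 3 were low in level and overlapped. Cdh3, Cldn3 and the junction scaffold Tjp1 did not pass the test. By group, Cldn6 averaged 50.1 ± 10.5 CPM (SD, n = 3) in AF and 36 ± 9.3 in FS1 but 13.5 ± 5.35 in FS2 and 8.24 ± 4.09 in AFX, while the 3 stages had means of 87.4 to 89.6.

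**Figure D4:**
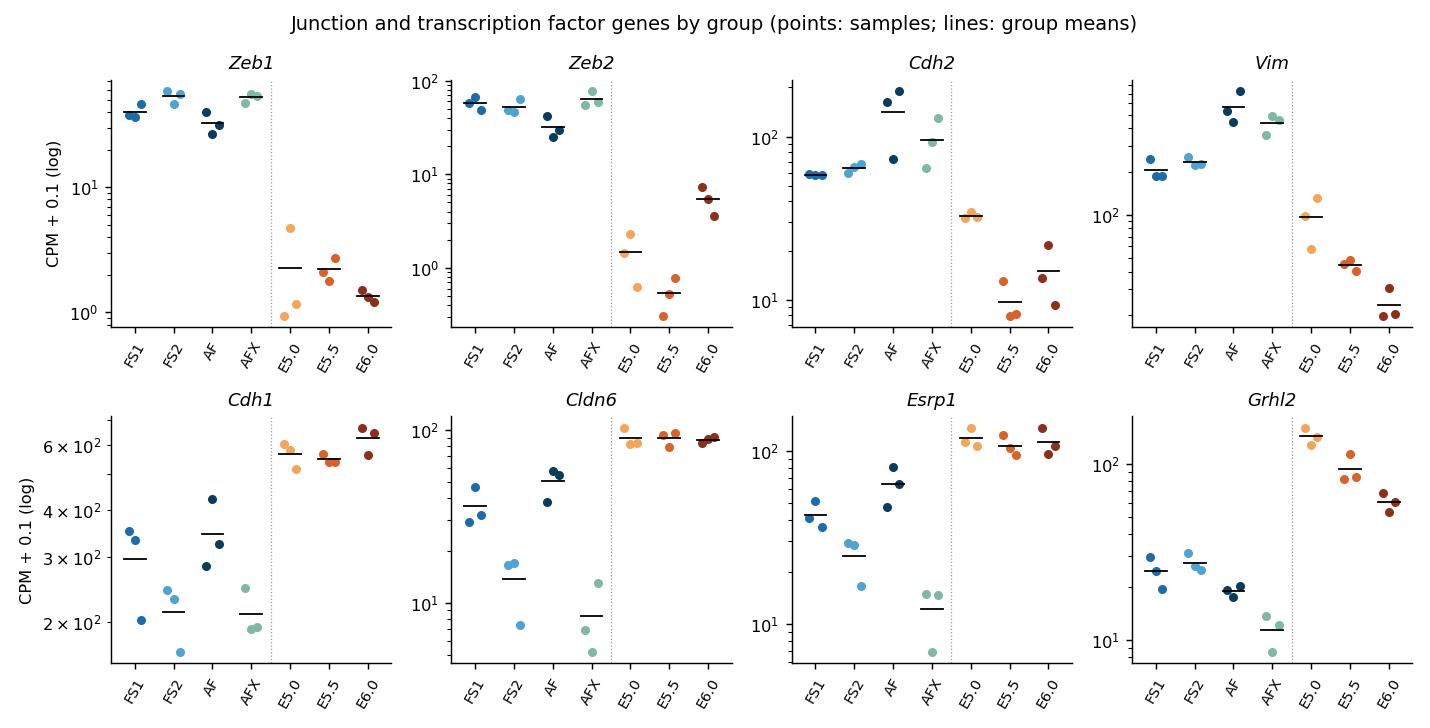
CPM (plus 0.1, log axis) of 8 genes in every sample by group, with cultured groups left of the dotted line and epiblast stages right of it; black lines are group means. Zeb1, Zeb2, Cdh2 and Vim are higher in all cultured samples, and Cdh1, Cldn6, Esrp1 and Grhl2 lower, with AFX lowest of the 4 cultured groups by mean for Grhl2, Cldn6 and Esrp1.

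Cytoskeletal and calcium-binding genes were higher in 22 of 28 and lower in 0, with 6 above without overlap (4 by TMM). With the random block 15 were higher, and 4 were lower without AF and 3 without E5.0. Vim, the intermediate filament vimentin, measured 185 to 731 CPM (median 307) against 19.6 to 131 (median 45.3), log2 fold change 2.60 ± 0.14 (SE, adjusted p = 2.11e-11). Its highest embryos were at E5.0, with a mean of 95.4 CPM, and the mean was 23.4 at E6.0. Cald1, the actin-binding caldesmon, measured 138 to 489 CPM (median 237) against 1.28 to 37.8 (median 22.4), log2 fold change 3.31 ± 0.38 (SE, adjusted p = 2.33e-06). Actb, Actg1 and Zyx did not pass the test. Neural-associated genes gave 3 higher of 9 (33.3%, against 34.2% of all genes) and 0 lower, and 5 were higher both without E5.0 and without AF. The 2 without overlap were Sox1 (3.60 ± 0.45 (SE)) and Nes, the filament nestin, with 298 to 471 CPM (median 393) against 38.4 to 154 (median 88.3). Of 10 fibroblast markers tested, 7 were higher (3 with the random block) and 1 lower. Their summed level was 23.0 to 334 CPM in culture and 11.9 to 29.9 in epiblasts, AF had a mean of 305 CPM, and none of the 11 in the table was at 0 in every cultured sample. Their part in the result was not tested.

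The genes with the largest differences in culture's favour had various functions. Ano3, of the TMEM16 family, had at most 1 count in any epiblast and 4.63 to 19.6 CPM (median 12.1) in culture, at least 37.9-fold higher. Ncam1, the neural cell adhesion molecule, measured 36.4 to 71 CPM (median 51.8) against 0.603 to 4.08 (median 2.63), log2 fold change 4.08 ± 0.16 (SE, adjusted p = 4.11e-15). Both gaps were complete in all 4 cultured groups, whose means for Ncam1 ran from 37.5 CPM in FS1 to 59.7 in FS2. Lix1l measured 6.13 to 16.6 CPM (median 12.1) against 0 to 0.308 (median 0), log2 fold change 7.61 ± 0.34 (SE, adjusted p = 1.16e-13). Txnip, which limits glucose uptake and binds thioredoxin, measured 49.2 to 219 CPM (median 134) against 1.38 to 9.28 (median 3.05), log2 fold change 4.95 ± 0.30 (SE, adjusted p = 8.04e-10). Slc39a8, a zinc and metal importer, measured 34.9 to 235 CPM (median 62.1) against 0.946 to 5.3 (median 2.69), log2 fold change 4.64 ± 0.29 (SE, adjusted p = 6.76e-10), highest in AF with 147 ± 75.9 CPM (SD, n = 3). Cd59a, which guards cells against complement, measured 28.2 to 164 CPM (median 51.5) against 0 to 5.06 (median 0.923), log2 fold change 5.67 ± 0.42 (SE, adjusted p = 8.11e-09).

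Other genes of this kind varied more between cultures. Mctp1, a calcium-binding membrane protein, averaged 20.3 CPM in FS2 and 21.4 in AFX but 1.6 in AF, and all epiblasts were at or under 3 counts, at least 36.1-fold lower. Meis1, a homeobox factor, averaged 15.9 CPM in FS1, 16.8 in FS2, 5.46 in AF and 3.34 in AFX, against 0 to 1.21 (median 0.105) CPM in epiblasts. Tnc, the matrix protein tenascin C, averaged 97.1 CPM in AF and 2.66 in AFX, overlapped under TMM and did not pass with the random block (adjusted p = 0.113). The remaining genes named by size were Gpr37, Pla2r1, Sdk2 and Zfr2, with log2 fold changes of 5.56, 5.06, 4.87 and 4.82. Clustered protocadherins, adhesion receptors whose transcripts share exons, were a list added after the values were seen. Of 36 tested, 31 were higher and 0 lower, 23 lay above without overlap (22 by TMM), and the median log2 fold change was 5.52. Because reads of their shared exons can be assigned to several members, single values such as that of Pcdhgc3, 25.6 to 55.2 CPM (median 43.7) against 0.426 to 3.49 (median 1.26), are uncertain, as are Pcdhgb7 and Pcdhga11, at 5.77 and 5.04.

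Imprinted genes, expressed from 1 parental allele, were higher in 20 of 26 and lower in 4, with 5 above and 1 below without overlap under both scalings. With the random block 13 were higher. Sgce, expressed from the paternal allele, measured 9.44 to 24 CPM (median 13) against 0 to 1.11 (median 0.692), log2 fold change 4.50 ± 0.38 (SE, adjusted p = 2.44e-09). Peg3, a paternally expressed zinc finger gene, measured 384 to 1119 CPM (median 568) against 84.9 to 198 (median 149.7), log2 fold change 1.82 ± 0.14 (SE, adjusted p = 6.24e-09). Grb10, a growth inhibitor, measured 468 to 1201 CPM (median 535) against 16.3 to 347 (median 137), log2 fold change 1.87 ± 0.22 (SE, adjusted p = 1.83e-06). Its embryonic means were 54.8 CPM at E5.0, 142 at E5.5 and 319.8 at E6.0, and without E5.0 the log2 fold change was 1.18. H19, a noncoding RNA of the Igf2 locus, was the 1 below, with 0.0884 to 32.3 CPM (median 1.88) against 34.2 to 131 (median 44.3), log2 fold change -4.70 ± 0.42 (SE, adjusted p = 1.14e-07), and its cultured means ran from 0.145 CPM in FS1 to 26.2 in FS2. Of 17 cell cycle and MYC genes 6 were higher (35.3%, near the share of all genes) and 9 lower, and 4 and 8 with the random block. Without overlap lay 2 above and 1 below (2 and 3 by TMM), Cdkn1a, described above, and a pair of cyclins. Ccnd2, cyclin D2, measured 36.3 to 191 CPM (median 84) against 0.319 to 12.8 (median 4.82), log2 fold change 3.90 ± 0.30 (SE, adjusted p = 1.54e-08), and Ccne1, cyclin E1, measured 36.9 to 87.3 CPM (median 67.7) against 135 to 254 (median 163), log2 fold change -1.58 ± 0.12 (SE, adjusted p = 6.83e-10). These 2 cyclins were separated in opposite directions.

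Germ cell and meiosis genes had the lowest median of the gene lists. Of 16 tested, 14 were lower in culture and 0 higher, 5 lay below every epiblast under both scalings, and the median log2 fold change was -6.23. With the random block 12 were lower, and without E5.0 the count was 13 of 14 tested. These genes act in germ cells, in transposon silencing by piRNAs and in meiotic chromosomes, and many are known to be silenced by promoter methylation in somatic cells. The promoters of 3 are shown because an E-box recurs in them, with CACGTG in capitals, otherwise as above. They lie at chr3:95559427-95559726 (plus strand), chr1:166238695-166238994 (minus strand) and chr13:112652261-112652560 (minus strand).
Hormad1: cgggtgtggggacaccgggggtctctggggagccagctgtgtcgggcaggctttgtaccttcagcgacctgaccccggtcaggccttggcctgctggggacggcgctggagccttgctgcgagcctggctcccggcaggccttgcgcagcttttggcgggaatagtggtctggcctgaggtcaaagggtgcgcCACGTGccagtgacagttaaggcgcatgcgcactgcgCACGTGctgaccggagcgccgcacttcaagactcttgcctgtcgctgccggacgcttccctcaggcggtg
Mael: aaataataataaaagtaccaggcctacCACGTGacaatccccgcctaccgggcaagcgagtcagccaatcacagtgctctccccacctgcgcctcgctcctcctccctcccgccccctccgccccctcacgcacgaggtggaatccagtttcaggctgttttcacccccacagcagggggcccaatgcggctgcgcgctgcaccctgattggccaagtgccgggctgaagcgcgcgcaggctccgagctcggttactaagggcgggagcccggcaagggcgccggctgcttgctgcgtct
Ddx4: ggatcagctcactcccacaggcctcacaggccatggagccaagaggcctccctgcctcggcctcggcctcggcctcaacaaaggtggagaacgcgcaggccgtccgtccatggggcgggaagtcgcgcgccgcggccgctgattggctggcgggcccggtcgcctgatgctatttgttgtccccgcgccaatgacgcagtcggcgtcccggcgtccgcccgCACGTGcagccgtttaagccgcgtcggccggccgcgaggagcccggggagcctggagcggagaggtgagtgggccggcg
Of the 14 listed genes with a promoter, 9 (64.3%) held CACGTG, which reads alike on both strands, against 10.1% of all promoters, and Hormad1 held 2, as 1.11% of promoters did. The 14 promoters held a median of 20 CpG dinucleotides (15 to 38), against 21 over all. The letters were chosen after the values were seen.

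Hormad1, of the meiotic chromosome axis, measured 0 to 0.176 CPM (median 0) in culture and 0.637 to 44.9 (median 6.2) in epiblasts, at least 46.9-fold lower in culture. Its stage means were 32.8 ± 10.5 CPM (SD, n = 3) at E5.0, 7.86 ± 3.54 at E5.5 and 1.52 ± 1.11 at E6.0, so the E6.0 embryos were nearest to culture. Ddx4, the germ cell RNA helicase Vasa, measured 0 to 0.581 CPM (median 0.158) against 6.5 to 16.5 (median 11.5), log2 fold change -6.26 ± 0.30 (SE, adjusted p = 7.83e-14), with no such stage order. Sohlh2, a germ cell transcription factor, and Mael, of the piRNA pathway, were at or under 3 counts in every cultured sample, at least 32.9-fold and 11.3-fold lower. Mov10l1, a piRNA helicase, had a log2 fold change of -6.57 ± 0.43 (SE).

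Fmr1nb was among the 15 genes named for the largest fold changes on this side. It measured 0 to 0.0716 CPM (median 0) against 7.66 to 35.9 (median 21.1), at least 69.5-fold lower in culture. Rbmxl2, a testis RNA-binding protein, was at least 66.7-fold lower, D1Pas1, a testis helicase, at least 52.3-fold, and Cyct, the testis form of cytochrome c, at least 47.7-fold. D1Pas1, Rbmxl2, Cyct and Rpl10l resemble widely expressed relatives, and how the authors' counting treated reads that fit both is not given in the sources used here, so their values are uncertain. Usp26, a deubiquitinase, measured 0 to 0.389 CPM (median 0) against 1.05 to 78.7 (median 6.15), Pnma5 0 to 0.565 CPM (median 0) against 0.999 to 65.8 (median 23), and Tuba3a, a testis tubulin, 0 to 1.43 CPM (median 0.119) against 5.61 to 63.2 (median 21.5). The remaining genes named by size were 2410141K09Rik, with a log2 fold change of -8.88 ± 0.37 (SE), Rpl10l, with -7.82 ± 0.35 (SE), and the clustered histone gene Hist1h2aa, at least 73.5-fold lower and uncertain for its near-identical copies. Fmr1nb, Rbmxl2, D1Pas1, Cyct, Usp26, Pnma5, Tuba3a and Rpl10l had their highest stage mean at E5.0. Cubn, an endocytic receptor of visceral endoderm, was also in this set by size, but its epiblast mean was 341 ± 208 CPM (SD, n = 3) at E5.0 and 1.18 ± 0.143 at E6.0, and it did not pass with the random block (adjusted p = 0.101).

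**Figure D5:**
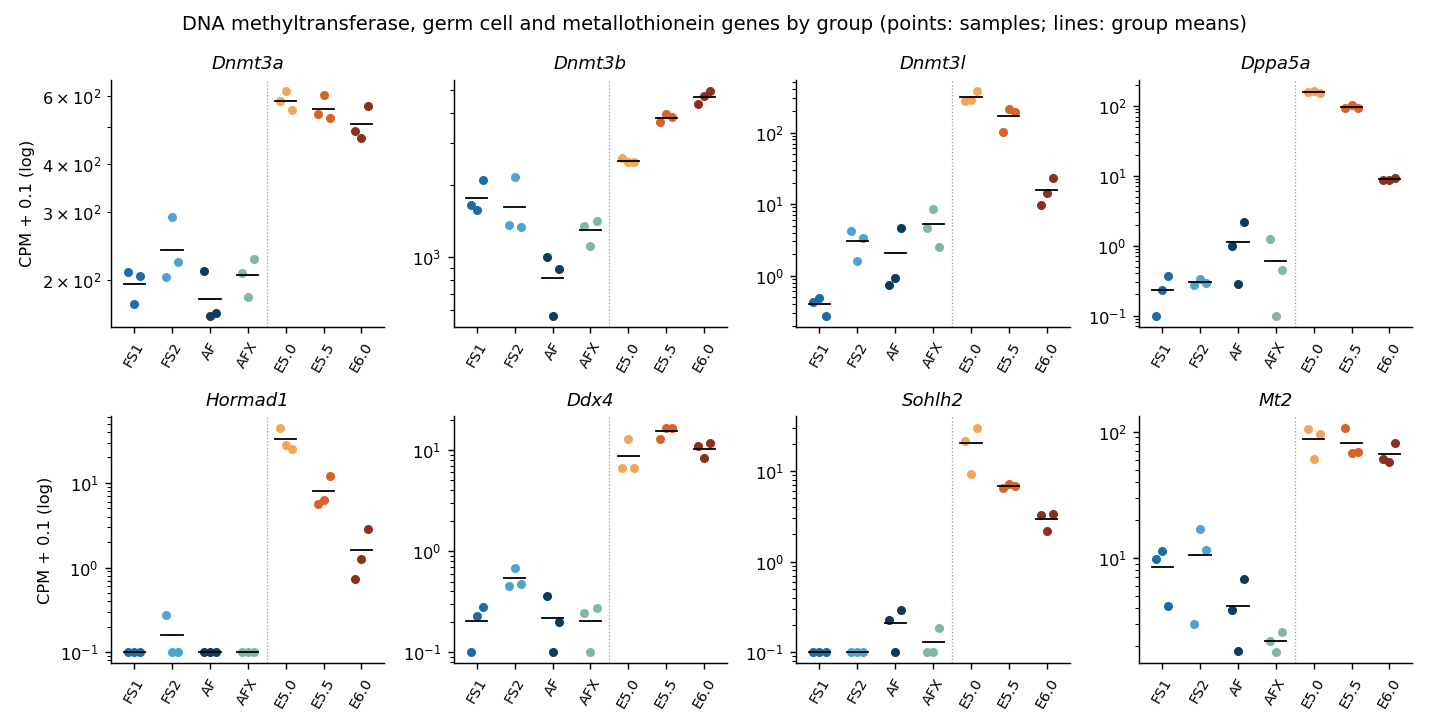
CPM (plus 0.1, log axis) of 8 genes in every sample by group, cultured groups left of the dotted line and epiblast stages right; black lines are group means. Dnmt3l, Dppa5a, Hormad1 and Sohlh2 decline from E5.0 to E6.0 by their means and are lower again in culture, whereas Dnmt3b is highest at E6.0.

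DNA methylation genes were lower in 7 of 9 and higher in 1, with 3 below and 1 above without overlap (4 and 0 by TMM). Dnmt3a, a de novo methyltransferase, measured 162 to 293 CPM (median 207) against 469 to 619 (median 552), log2 fold change -1.66 ± 0.07 (SE, adjusted p = 2.83e-14). Dnmt3b, its partner enzyme, measured 569 to 2155 CPM (median 1360.2) against 2499 to 4959.7 (median 3845), log2 fold change -1.67 ± 0.10 (SE, adjusted p = 4.58e-11). Dnmt3l, their cofactor, measured 0.177 to 8.44 CPM (median 1.96) against 9.56 to 381 (median 191), log2 fold change -6.00 ± 0.32 (SE, adjusted p = 1.97e-10). All 3 were below every embryo in every cultured sample, although Dnmt3b in FS1 averaged 1772 ± 285 CPM (SD, n = 3) against 819.7 ± 224 in AF. Tet2, which oxidises methylcytosine, was the 1 above, with 14 to 42.3 CPM (median 30.9) against 0.426 to 13.6 (median 6.2), and overlapped under TMM.

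Pluripotency factors were lower more often than higher. In the core list 9 of 12 were lower and 2 higher, in the naive list 7 of 10 and 1, and in the formative list 11 of 14 and 1, with 3, 1 and 6 below without overlap (6, 1 and 8 by TMM). With the random block 7, 5 and 10 were lower and 0 were higher in any of the 3 lists. Pou5f1, encoding OCT4, measured 315 to 530.2 CPM (median 429.7) against 484 to 622 (median 573), log2 fold change -0.61 ± 0.07 (SE, adjusted p = 1.98e-07), and overlapped by plain CPM but not by TMM. Sox2 and Nanog, its partners, were called higher and overlapped, but not with the random block (adjusted p = 0.418 and 0.161). Sox2 was called in only some of the fits that left out a sample. Utf1, a chromatin factor of pluripotent cells, measured 28.6 to 116 CPM (median 65.1) against 140.2 to 258 (median 217), log2 fold change -1.91 ± 0.13 (SE, adjusted p = 2.23e-10). Dppa4 and Dppa5a, early embryo genes, had -5.18 ± 0.27 (SE) and -7.31 ± 0.24 (SE), and both fell in stage order by group mean, Dppa5a from 157 CPM at E5.0 to 8.74 at E6.0. Pou3f1, or OCT6, a formative factor, measured 43.2 to 88.9 CPM (median 59.1) against 107 to 191 (median 152), log2 fold change -1.50 ± 0.10 (SE, adjusted p = 1.28e-11). Fgf5, a formative marker, overlapped, and its higher call was lost with the random block (adjusted p = 0.395).

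Genes of the NODAL and FGF lists were also lower more often than higher. Of 14 NODAL pathway genes 9 were lower and 1 higher, with 1 below without overlap, and with the random block 5 were lower. The 1 without overlap was Smad7, an inhibitor induced by the pathway, with 6.85 to 86.6 CPM (median 21.1) against 87.3 to 166 (median 114), log2 fold change -2.33 ± 0.30 (SE, adjusted p = 6.84e-06). AF came nearest to the embryos with 78.6 ± 10.3 CPM (SD, n = 3), and the other 3 cultured groups had means of 17.6 to 20.8. Nodal, the ligand, averaged 23.2 CPM in AF and 0.964 in FS2, against 14.7 to 38.2 (median 26.1) in epiblasts, with a log2 fold change of -2.69 ± 0.32 (SE), and -1.90 without FS2. Of 16 FGF and ERK feedback genes 11 were lower and 4 higher, and 9 and 2 with the random block. Etv5, a transcription factor induced by ERK, lay below without overlap at -1.39 ± 0.09 (SE), and the inhibitor Spred1 and the receptor Fgfr1 above at 1.38 ± 0.13 (SE) and 0.42 ± 0.07 (SE). The ERK phosphatase gene Dusp4 and the ligand gene Fgf4 had -1.94 ± 0.17 (SE) and -1.97 ± 0.12 (SE), with overlap. Of 12 primitive streak genes 3 were higher (25.0%) and 2 lower (16.7%), both under the shares of all genes. None were called with the random block, without AF 5 were lower, and without E5.0 1 was called in each direction. Brachyury (T) there ranged from 0 to 108 CPM (median 10.6) in culture, with means of 59.4 in AF and 0.646 in FS2, against 0 to 12.5 (median 0.277) in epiblasts.

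Metallothionein and NRF2 genes, which respond to metals and oxidants, were lower in 10 of 13 and higher in 1, with 2 below without overlap (3 by TMM). Mt1 and Mt2, which bind zinc and copper, were those 2. Their promoters are shown with TGCNCNC, the core of the metal response element, in capitals on either strand, at chr8:94178839-94179138 (plus strand) and chr8:94172368-94172667 (plus strand).
Mt1: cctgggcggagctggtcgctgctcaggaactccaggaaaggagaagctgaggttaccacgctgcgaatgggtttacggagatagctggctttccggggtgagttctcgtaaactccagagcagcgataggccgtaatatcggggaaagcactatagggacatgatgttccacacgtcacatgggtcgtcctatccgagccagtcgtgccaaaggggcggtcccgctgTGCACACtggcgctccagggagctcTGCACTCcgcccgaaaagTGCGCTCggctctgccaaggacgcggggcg
Mt2: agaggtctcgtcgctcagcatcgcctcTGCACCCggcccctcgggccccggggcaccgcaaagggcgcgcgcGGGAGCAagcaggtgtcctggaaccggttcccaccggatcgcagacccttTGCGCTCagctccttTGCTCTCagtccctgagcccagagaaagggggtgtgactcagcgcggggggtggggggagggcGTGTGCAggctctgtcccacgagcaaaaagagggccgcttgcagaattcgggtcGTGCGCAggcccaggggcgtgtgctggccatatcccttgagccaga
This short core is in 60.7% of all promoters. Mt1 holds 3 matches, as 10.6% of promoters do, and Mt2 holds 6, as 0.407% do. Mt1 measured 8.3 to 56.4 CPM (median 19) in culture against 87.1 to 174 (median 125) in epiblasts, log2 fold change -2.71 ± 0.27 (SE, adjusted p = 4.81e-07). Mt2 measured 1.69 to 16.7 CPM (median 3.9) against 57 to 107 (median 69.1), log2 fold change -4.13 ± 0.28 (SE, adjusted p = 1.74e-09). Both were lowest by mean in the EpiSC groups, with 2.09 CPM for Mt2 in AFX and 10.4 in FS2, while the embryonic stages had means of 65.9 to 86.9.

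Housekeeping classes had more lower than higher members. Of 82 cytoplasmic ribosomal protein genes 74 were lower and 0 higher, with a median log2 fold change of -0.53 and 12 below without overlap, a number that was 41 by TMM. Many have pseudogenes that can take their reads. Nuclear genes of oxidative phosphorylation were lower in 55 of 88 and higher in 5 (2 with the random block), median -0.30. Of the 13 proteins encoded in mitochondrial DNA, 12 were lower and 1 higher, and 9 of the 12 lay below every embryo. For example mt-Nd2, of respiratory complex I, measured 247 to 456 CPM (median 404) against 803 to 1216 (median 863), log2 fold change -1.52 ± 0.10 (SE, adjusted p = 5.54e-11). The share of all counts in these 13 genes was 0.684 ± 0.091% (SD, n = 12) in culture and 1.21 ± 0.20% (SD, n = 9) in epiblasts (exact permutation test, two-sided, adjusted p = 4.08e-05). The 1 higher was mt-Nd6, encoded on the opposite strand to the rest, at 0.63 ± 0.12 (SE), and without a stated strand setting its reads cannot be told from those of transcripts across it. Heat shock genes were lower in 9 of 11 and higher in 0, as Hsp90aa1 at -0.67 ± 0.06 (SE), and 5 were lower with the random block. Ribosomal RNA loci took 23.9 ± 2.4% of counts (SD, n = 12) in culture and 26.6 ± 2.6% (SD, n = 9) in epiblasts (exact permutation test, two-sided, adjusted p = 0.0316), from an unadjusted p of 0.0205. The difference missed the threshold without E5.0 embryo 2 (unadjusted exact p = 0.0517) and over the 7 group means (unadjusted exact p = 0.114). The part of these loci in the results was not tested, and the counts of called genes were 5613 higher and 4873 lower without those loci.

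Of 19 interferon and MHC class I genes 7 were higher and 7 lower, 36.8% each and near the shares over all genes of 34.2% and 29.0%, and 4 lay above without overlap. With the random block 5 were higher and 2 lower, and without E5.0 3 were lower. B2m, the light chain of MHC class I, measured 10.1 to 21.4 CPM (median 13.5) against 0.343 to 3.09 (median 2.42), log2 fold change 2.48 ± 0.24 (SE, adjusted p = 6.32e-09), and the heavy chain H2-K1 had 2.88 ± 0.23 (SE), a value uncertain because class I genes are alike in sequence. Irf1 and the immunoproteasome gene Psmb8 were lower, at -2.33 ± 0.14 (SE) and -3.65 ± 0.43 (SE).

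Immediate early genes, which rise within minutes of a stimulus, were lower in 12 of 19 and higher in 5, and with the random block in 5 and 2. Ier2 of that list lay below without overlap at -1.36 ± 0.09 (SE), and Btg2, an inhibitor of proliferation, above at 2.71 ± 0.19 (SE). Polycomb and trithorax genes, which keep chromatin states, were lower in 12 of 21 and higher in 2, and with the random block in 7 and 0. Clustered histone genes were lower in 29 of 63 and higher in 1, with 9 lower under the random block, 56 of 63 without E5.0 and 18 without AF. They share reads among near-identical copies. Matrix and basement membrane genes were higher in 12 of 20 and lower in 5, with 5 and 2 under the random block and 2 lower without E5.0. The remaining lists had shares of higher or lower members near or below those of all genes (34.2% and 29.0%), apart from the lower members of the WNT (44.4%) and BMP (50%) lists and the higher members of the LIF list (42.9%), and YAP and TEAD genes had 33.3% in each direction. The WNT target list was higher in 3 of 9 and lower in 4, the BMP and ID list in 2 of 12 and 6, the retinoic acid list in 1 of 7 and 2, the LIF and STAT3 list in 3 of 7 and 0, the YAP and TEAD list in 4 of 12 and 4, and the lysosome list in 3 of 15 and 4. Without overlap lay 1 WNT target above and 1 below (0 and 3 by TMM) and 2 genes of the LIF list above (0 by TMM). The YAP list had 3 above (1 above and 1 below by TMM), and the lysosome list 1 above under both scalings. Over all genes tested 8.85% lay above and 2.45% below by plain CPM. With the random block the WNT target list had 1 higher, the BMP and ID list 0 higher, the retinoic acid list 0 higher and 1 lower, and the lysosome list 2 lower.

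Markers of visceral endoderm, the tissue that surrounds the epiblast, had their highest summed level by mean at E5.0. The summed level was 45.8 to 265 CPM in culture and 110.3 to 1132 in epiblasts, with stage means of 923 at E5.0, 181 at E5.5 and 117 at E6.0. Of 15 tested, 11 were lower in culture and 1 higher, and 9 and 0 with the random block. Of the 17 in the table, 5 were at or under 3 counts in every cultured sample, Afp and Apoa4 were at 0 in all 12, and none was at or under 3 counts in every epiblast. In 4 of the 17 the highest sample was a cultured one. The endoderm transcription factor genes Sox17, Gata6 and Gata4 averaged 32.5, 18.7 and 10.5 CPM in AF, with highest epiblasts of 2.23, 3.51 and 15.1, and the retinol carrier gene Rbp4 measured 0.764 to 2.79 CPM (median 2.12) in culture and 0 to 1.23 (median 0.765) in epiblasts. In such bulk samples fewer cells of a type and less RNA per cell cannot be told apart. The separated gene counts without E5.0 were 1998 and 610, but leaving out samples can only keep or add separated genes. The part of the visceral endoderm markers in the results was not tested. Extraembryonic ectoderm markers summed to 2.11 to 35.1 CPM in culture and 2.95 to 38.3 in epiblasts. The difference did not pass the test (exact permutation test, two-sided, adjusted p = 0.276, unadjusted 0.253). Without E5.0 embryo 2 the unadjusted exact p was 0.031, with no adjustment over the measures. Parietal endoderm markers summed to 310.2 to 708 CPM in culture, highest by mean in AF at 576, and to 244 to 587 in epiblasts, highest at E5.0 with 483. Their difference did not pass the test with all samples (exact permutation test, two-sided, adjusted p = 0.262, unadjusted 0.218). Without E5.0 embryo 2 their unadjusted exact p was 0.0475, again with no adjustment. Of 7 parietal endoderm markers tested, 2 were higher and 2 lower (28.6% each), near or below the shares over all genes (34.2% and 29.0%). With the random block 2 were higher and 1 lower, and without E5.0 2 of 6 were higher and 0 lower. Blood markers summed to 0.387 to 4.77 CPM in culture and 0.384 to 11.4 in epiblasts and did not pass (exact permutation test, adjusted p = 0.0642). Decidua markers summed to 14.9 to 46.9 CPM in culture, highest by mean in AFX at 37.7, and to 4.68 to 17.96 in epiblasts (exact permutation test, two-sided, adjusted p = 0.000674, and 0.0571 unadjusted over the 7 group means). Of 4 tested, Des, the muscle filament desmin, and Pgr, the progesterone receptor, were higher at 2.73 ± 0.26 (SE) and 1.16 ± 0.21 (SE), Dcn, decorin, which is also in the fibroblast list, was lower at -2.99 ± 0.47 (SE), and Cryab did not pass. Hand2 was at 0 in every cultured sample. The part of these markers in the results was not tested.

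The non-overlapping genes differed in length and position from other genes, described here without a test. Median exon length was 5793 bases for the protein-coding genes above, 3487 for those below and 4429 for the rest. In 5 equal bins of exon length, the share above was 5.17% in the bin of shortest genes and 15.4% in that of the longest, and the share below was 4.36% and 1.10%. In 5 equal bins of GC content, 11.1% of the lowest bin and 7.63% of the highest lay above, and 2.13% and 3.74% below. Chromosome 18, which carries the clustered protocadherins, had 65 of 409 genes above (15.9%), and the mitochondrial genome had 11 of 22 below.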

How the data were processed

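RNA of 12 cultured samples and 9 epiblasts was sequenced after extraction with the PicoPure kit, per the labels. The authors deposited raw counts per gene, and the submitters' processing notes name Trim Galore, TopHat2 2.1.0, featureCounts 1.5.0 and mm10. The annotation release, strand setting and treatment of reads that fit several genes are not given in the sources used here, nor is any batch. Gene types and lengths came from GENCODE M21 (GRCm38, matching 33683 of 33861 identifiers), promoters from RefSeq (GRCm38.p6), of which 10819 tested genes had one.

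Genes were tested in R 4.3.3 with edgeR 4.0.16: filterByExpr, TMM, a robust quasi-likelihood fit of 7 groups, and a two-sided F-test of the mean of 4 cultured against 3 epiblast coefficients, Benjamini-Hochberg adjusted over 16614 genes. SE is the log2 fold change over the root of F. The random block is limma-voom 3.58.1 with groups as a random effect (consensus correlation 0.373), and DESeq2 1.42.0 was an alternative. Library measures had exact permutation tests, adjusted over 12 measures. Genes were named by rule: protein-coding, non-overlapping, past the threshold and at least 10 CPM on the higher side, the 15 largest and 15 smallest log2 fold changes, the 5 widest gaps per direction, and any gene of the lists. Of 544 list entries 5 were not resolved to 1 gene and are not analysed here, and some entries are counted in their lists but not reported singly here. The members and lists were chosen with earlier results of these data known, and the listed genes given singly were picked with their values in view. Floors cover counting error only. Alternatives were other scalings, filters, tests and groupings, and leaving out each sample and group.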

Additional observations from a re-analysis of the deposited data

Results flagged for a closer look

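In 44 sets of values over the 9 epiblasts, 6 had 1 sample far from the others, and chance flags about 1 in 20 sets. The extraembryonic ectoderm marker sum was 38.3 CPM in E5.0 embryo 2. Of the named genes, Lix1l was 0.308 CPM in E6.0 embryo 2, Gpr37 1.05 CPM in E5.5 embryo 1, Pla2r1 1.91 CPM in E6.0 embryo 1, Txnip 9.28 CPM in E5.0 embryo 1 and Usp26 78.7 CPM in E5.0 embryo 1.

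In 8 listed genes all samples of 1 cultured group lay above every epiblast and all samples of another lay below, and these differences between cultured groups were not tested. For Scd1 (pooled log2 fold change -0.85) AF and AFX lay above and FS1 and FS2 below. For Prdm1 (-2.64), a transcriptional repressor needed for germ cell specification, AF lay above with a mean of 16.9 CPM and FS1 and FS2 below with 0.109 and 0. The NODAL pathway genes Lefty1 (-0.36) and Lefty2 (-1.63) lay above in AF and below in FS2, and Lefty1 averaged 150.5 CPM in AF and 0.155 in FS2. Bmp2 (1.56), a ligand, lay above in AF with 36.8 CPM and in AFX with 11.3, and below in FS2 with 0.121. The calcium-binding gene S100a10 (0.48) lay above in AF and AFX and below in FS1. The ribosomal protein genes Rps18 (0.14) and Rpl37 (-0.11) lay above in AFX, Rps18 also in AF, and below in FS2.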

How the results depend on the processing

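No paired analysis was possible because cultured samples are numbered by passage (10 to 18) and epiblasts by embryo (1 to 4), so the 2 sides share no number. With the groups as a random block, 3404 genes were higher and 3003 lower, 6395 of the 10494 genes called in the 7-group test were called there too, and 0 had the opposite direction. Testing genes with a mean of at least 5 CPM left 3729 higher, with fewer genes tested. The remaining fits kept both counts within 1.5 times, at 5540 to 5829 higher and 4639 to 5114 lower when 1 sample was left out. Non-overlapping genes numbered 896 higher and 964 lower by TMM, 133 and 40 with a gap of at least 2-fold, and 782 lower without E6.0. Leaving out 1 sample gave 1482 to 1689 higher and 413 to 471 lower. Leaving out samples, as in the count without E6.0, can only keep or add non-overlapping genes, so these counts do not measure stability. Of the named genes chosen by size or gap, Tnc and Cubn lost the call with the random block, and the other 1150 refitted values kept direction and side of the threshold. These genes were chosen for large differences in the same samples, so this is no independent measure of stability.

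The medians of 4 gene lists changed sign. That of WNT targets was -0.79 with the 5 CPM filter, -0.46 to 0.60 over the fits without 1 sample (-0.46 without FS1 passage 10, -0.43 without FS2 passage 16), -0.87 without AF, -0.56 without E5.5 and -0.24 without FS1. That of interferon and MHC genes was -0.27 without E6.0, that of YAP and TEAD genes -0.35 without AF, -0.018 without E5.0 and -0.059 without E5.5, and that of extraembryonic ectoderm genes 0.81 without E5.0. The cause was not tested. No extraembryonic ectoderm gene passed the 5 CPM filter, so that list has no value there. With 7 group means in place of 21 samples the smallest possible exact p is 0.0286, and the rRNA, top-50, visceral endoderm, fibroblast and decidua measures did not pass, nor did that of blood markers, which over samples had an adjusted p of 0.0642 (unadjusted 0.0481). Genes near 3 counts are limited by depth.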
